A study of Mus musculus with 19 samples.

Results

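The 8 genes of the calnexin and calreticulin folding cycle, Calr, Canx, Uggt1, Uggt2, Ganab, Prkcsh, Mogs and Ppib, were followed through 19 RNA-seq libraries of mouse dorsal hippocampus. They were found in a count table of 51789 genes by Ensembl gene ID, through the symbols of the GENCODE M21 annotation, and the rule for the set named their roles in the cycle and used no measured value. All mice were C57BL/6J males of 2 to 4 months, and libraries were made from total RNA after depletion of ribosomal RNA. In experiment 1, mice carrying both tTA and a transgene for a dominant-negative Nr4A (tTA+/DN+, n = 5) were compared with littermates carrying tTA alone (tTA+/DN-, n = 6). Nr4A proteins are nuclear receptors whose genes are switched on by neuronal activity, tTA is the tetracycline-controlled transactivator that drives a responsive transgene, and all 11 of these mice had the exposure that the labels name SOR. In experiment 2 no mouse carried DN, and mice after SOR (n = 4, 3 of them tTA+) were compared with mice kept in the homecage (n = 4, 2 of them tTA+). The labels do not spell out SOR and do not give the promoter that drives tTA, so the cells that express DN are not known here. Each library is labelled as 1 sample of a group, and p-values measure the spread between those samples.

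Most proteins that enter the endoplasmic reticulum (ER) receive a glucose-capped sugar chain. Mogs (glucosidase I) removes the outermost glucose, and glucosidase II, made of the catalytic subunit Ganab and the regulatory subunit Prkcsh, removes the next. The trimmed chain is bound by the lectin chaperones calnexin (Canx, in the membrane) and calreticulin (Calr, in the lumen), both of which also bind calcium. Glucosidase II then releases the protein, and Uggt1, or its paralog Uggt2, puts a glucose back on chains of proteins that are not yet folded, so that they bind the lectins again. Ppib (cyclophilin B) is a prolyl isomerase of the ER that assists folding alongside the lectins. In neurons, receptors, channels and adhesion molecules pass through this cycle on the way to the cell surface.

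The starts of Calr, Canx and Uggt2 are shown because the first and the last of these had the widest differences in experiment 2, in opposite directions, and because Calr and Canx share a sequence feature. The sequences lie just before the annotated gene and are RefSeq promoter windows on GRCm38.p6, written 5′ to 3′ on the strand of the gene. Calr is at chr8:84846935-84847181, Canx at chr11:50325674-50325923 and Uggt2 at chr14:119099435-119099684, all on the minus strand. Capitals mark the ER stress response element in the first 2, and CCACG, the end of that element that the stress factor ATF6 contacts, in all 3.
Calr: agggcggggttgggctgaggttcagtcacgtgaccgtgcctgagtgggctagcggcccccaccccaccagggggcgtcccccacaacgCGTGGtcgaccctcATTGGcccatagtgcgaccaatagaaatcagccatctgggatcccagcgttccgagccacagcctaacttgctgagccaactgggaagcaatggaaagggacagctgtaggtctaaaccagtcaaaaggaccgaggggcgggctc
Canx: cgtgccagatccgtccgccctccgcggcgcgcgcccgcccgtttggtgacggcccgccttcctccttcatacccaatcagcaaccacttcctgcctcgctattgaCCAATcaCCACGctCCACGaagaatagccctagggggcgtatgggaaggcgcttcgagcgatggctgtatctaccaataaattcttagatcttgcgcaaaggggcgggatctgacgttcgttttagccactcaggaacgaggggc
Uggt2: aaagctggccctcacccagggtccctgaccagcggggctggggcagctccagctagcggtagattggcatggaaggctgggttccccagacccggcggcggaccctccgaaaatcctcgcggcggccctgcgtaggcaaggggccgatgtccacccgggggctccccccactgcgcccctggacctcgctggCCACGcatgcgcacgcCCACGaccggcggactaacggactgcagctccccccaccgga
The ER stress response element, searched on both strands as CCAAT and CCACG with 9 free bases between them, has a CCAAT box for the factor NF-Y and a CCACG for ATF6. It was present in the windows of 2 of the 8 genes, Calr and Canx, and in 39 of 32851 RefSeq promoter windows of the same kind (0.119%). In Calr it read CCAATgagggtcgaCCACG on the opposite strand, 162 bases before the start, so that it appears above as its reverse complement. In Canx it read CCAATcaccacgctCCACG on the strand of the gene, 145 bases before the start, and the spacer holds another CCACG. For comparison, Hspa5, the ER chaperone BiP, held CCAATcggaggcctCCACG 65 bases before its start. The related element of ATTGG and CCACG with 1 free base between them, in 0.0365% of all windows, and the XBP1-type core TGACGTGG, in 0.676%, were found in 0 of the 8. CCACG alone, which is part of the longer element, was in 5 of the 8 (Calr, Canx, Ganab, Ppib and Uggt2) and in 32.8% of all windows. A match describes the letters only, and binding was not measured.

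The libraries held 22258159 to 66991576 counts each. Neuronal markers of the hippocampus summed to between 2835 and 4108 CPM (counts scaled to the size of the library) in all 19, so markers of the labelled tissue were present throughout. Markers of the choroid plexus, an epithelium that borders the hippocampus, were uneven: their summed level was above 500 CPM in control replicates 1 and 2 and DN replicate 2 of experiment 1, and in SOR replicates 1 and 2 of experiment 2, while the 4 homecage libraries held 47.5 to 176 CPM. All 10 of these markers were above 0 on the log2 scale after SOR (median 2.16) and all 10 below 0 with DN (median -0.88), with 6 of 10 higher after SOR and 0 of 10 lower with DN at an unadjusted p under 0.05, 0 of 10 passing the adjusted test in either comparison and 0 of 10 at a level of 0. SOR replicate 3 of experiment 2 was the shallowest library, with 22258159 counts and 27815 genes detected against at least 30165 in every other library of that experiment. Its summed neuronal markers, 2835 CPM, were the lowest of all, against 3343 to 3536 CPM in the other SOR libraries of experiment 2. Its summed astrocyte and microglia markers were the highest of all, at 1833 and 308 CPM. In bulk tissue, fewer cells of a type and less RNA per cell cannot be told apart.

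Per length of exon, the 2 lectin chaperones were far above the enzymes of the cycle. In the homecage Calr was at 140.4 ± 5.63 CPM per kb (SD, n = 4) and Canx at 129.8 ± 10.4 CPM per kb (SD, n = 4), and their ranges overlapped. Ganab followed at 24.9 ± 1.45 CPM per kb (SD, n = 4), below every value of either lectin. Ppib was at 14.8 ± 0.374 and its neighbour Prkcsh at 13.8 ± 0.242 CPM per kb (SD, n = 4 each). Those 2 did not overlap in the homecage, but their order was the other way round in both groups of experiment 1 and after SOR in experiment 2. Mogs was at 9.70 ± 0.320 and Uggt1 at 8.35 ± 0.298 CPM per kb (SD, n = 4 each). The order of their means was the other way round in both groups of experiment 1. Uggt2 was lowest with 3.54 ± 0.197 CPM per kb (SD, n = 4). In every group Calr, Canx and Ganab led in that order and Uggt2 came last.

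**Figure D1:**
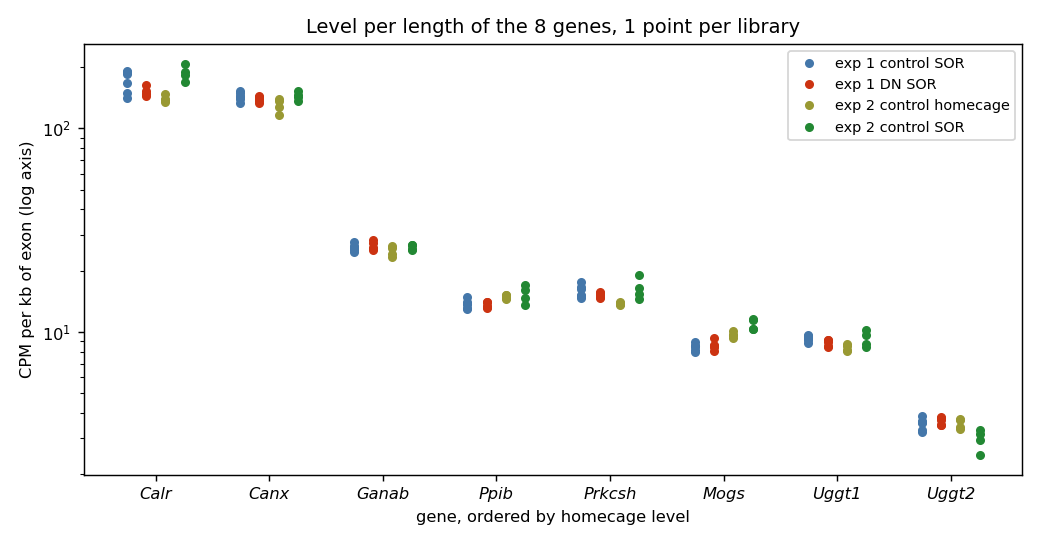
Level of each gene in each library in TMM-scaled CPM per kb of exon (log axis), with genes ordered by their homecage mean and 1 point per library coloured by group. Calr and Canx sit at or above 115.8 CPM per kb in all libraries, and the highest Uggt2 point is at 3.86.

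After SOR, against the homecage, calreticulin had the widest difference of the 8 genes. The means of Prkcsh, Mogs, Canx, Uggt1, Ganab and Ppib were also higher after SOR, by less, and that of Uggt2 was lower. None of the 8 passed an adjusted p of 0.05 in edgeR's quasi-likelihood test, which called 0.0897% of 22305 genes higher and 0% lower. DESeq2 called 1 of the 8, Calr, among 122 genes that it called in all, and limma-voom called 0 of the 8. At an unadjusted p under 0.05, 2 were higher (Calr and Prkcsh) and 1 was lower (Uggt2), against 3.67% of all genes higher and 3.93% lower. Without homecage replicate 2 that count went from 3 to 1, Calr, and over the other settings it ran from 1, among tTA+ mice alone and without the choroid-rich libraries, to 6 with all 19 libraries in 1 fit. In 3 of the 8 (Calr, Prkcsh and Mogs) every SOR library lay above every homecage library, against 3.06% of all genes tested, and in 1 (Uggt2) every SOR library lay below, against 2.65%. The median log2 fold change of the 8 was 0.16, against 0.0076 over all genes tested, and 7 of 8 were above 0 against 51.5% of all genes, with 1 below 0 against 48.5%. Without SOR replicate 3 that median was 0.12. Oligodendrocyte markers lay in the same direction, with 6 of 6 above 0, a median of 0.14, 1 at an unadjusted p under 0.05 and a summed level of 5944 to 7015 CPM after SOR and 5471 to 6539 CPM in the homecage. At that p, 2 of 5 microglia, 1 of 5 astrocyte, 1 of 5 blood and 1 of 5 endothelial markers were higher and 1 endothelial marker was lower. The medians of these lists were 0.09, 0.09, 0.12 and -0.01. Of 6 neuronal markers 4 were below 0, with 0 at that p. The part of any of these cell types in the result was not tested.

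Calr was at 404, 390.3, 427 and 396 CPM in homecage replicates 1 to 4 and at 545, 528, 600.0 and 489 CPM in SOR replicates 1 to 4. Every SOR library lay above every homecage library, and SOR replicate 3 was the highest. The homecage mean of 404 ± 16.2 CPM (SD, n = 4) compared with an SOR mean of 541 ± 46.1 CPM (SD, n = 4), and the fitted log2 fold change was 0.42 (SE 0.0831, 95% interval 0.24 to 0.60). The edgeR unadjusted p was 0.000334 and the adjusted p 0.157. Over the planned settings the adjusted p ran from 0.00235 with DESeq2 to 0.998 among tTA+ mice alone (3 against 2), where the log2 fold change was 0.39. A single fit of all 19 libraries gave an adjusted p of 0.0192, and leaving out 1 library gave 0.37 (without SOR replicate 3) to 0.46 (without SOR replicate 4), with adjusted p from 0.0783 without SOR replicate 3 to 0.651 without homecage replicate 1. Without SOR replicates 1 and 2, the libraries rich in choroid plexus markers, the log2 fold change of Calr was 0.43 with an adjusted p of 0.333.

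Canx, the membrane-bound lectin, was at 601, 544, 653 and 639 CPM in homecage replicates 1 to 4. After SOR it was at 673, 643, 713 and 687 CPM. The groups overlapped, since 1 SOR library was below the highest homecage library. Its log2 fold change was 0.16 (SE 0.0826, edgeR adjusted p = 0.667), and among tTA+ mice alone it was 0.075. The 2 tTA- homecage libraries, replicates 1 and 2, held the lowest Canx levels of the experiment. The ratio of Calr to Canx per kb was 1.09 ± 0.0667 in homecage mice (SD, n = 4) and 1.30 ± 0.0940 after SOR (SD, n = 4), with the lowest SOR library, at 1.16, inside the homecage range of 1.01 to 1.17.

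**Figure D2:**
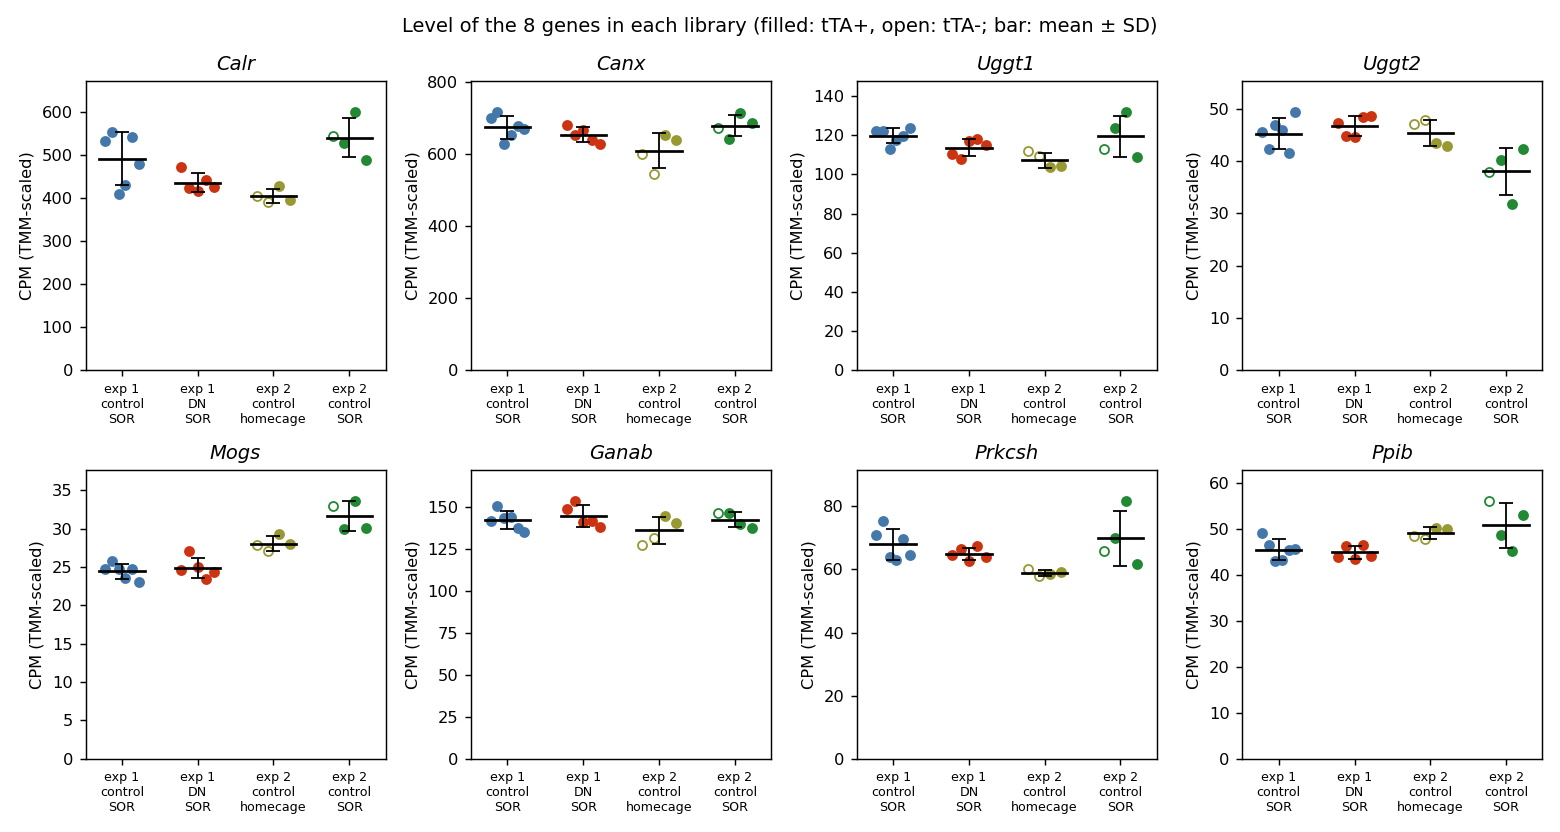
TMM-scaled CPM of each of the 8 genes in every library (filled points tTA+, open points tTA-), with the mean and SD of each group. In experiment 2 the SOR and homecage points of Calr, Prkcsh, Mogs and Uggt2 do not overlap, and Uggt2 is the gene whose SOR points are the lower ones. Scaling was done within each experiment, so heights are to be compared within experiment 1 or within experiment 2.

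Of the glucosidases, Mogs, the first enzyme, was at 27.8, 27.1, 29.3 and 27.9 CPM in the 4 homecage libraries and at 33.0, 30.0, 33.6 and 30.0 CPM after SOR. The groups did not overlap, and the log2 fold change was 0.17 (SE 0.0824, edgeR adjusted p = 0.662). Prkcsh, the regulatory subunit of glucosidase II, was tightly grouped in the homecage at 60.2, 57.8, 58.4 and 59.3 CPM, and after SOR it was at 65.8, 70.1, 81.8 and 61.7 CPM. Its groups did not overlap either, with SOR replicate 3 far above the rest and SOR replicate 4 close to the homecage. The log2 fold change of Prkcsh was 0.24 (SE 0.0941, edgeR adjusted p = 0.621), and 0.16 without SOR replicate 3. The catalytic subunit Ganab was at 127 to 144 CPM in the homecage and 138 to 146 CPM after SOR, a log2 fold change of 0.07 (SE 0.0751, 95% interval -0.10 to 0.23, edgeR adjusted p = 0.786). It was 0.030 without homecage replicate 1, and its sign turned among tTA+ mice alone, to -0.015. The subunits of glucosidase II had a Ganab to Prkcsh ratio per kb of 1.81 ± 0.119 in the homecage and 1.62 ± 0.193 after SOR (SD, n = 4 each), with overlapping ranges.

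The 2 glucosyltransferases had differences of opposite sign. Uggt1 was at 112, 109, 104 and 104 CPM in the homecage and at 113, 124, 132 and 109 CPM after SOR, where replicate 4 lay inside the homecage range. Its log2 fold change was 0.15 (SE 0.0829, 95% interval -0.03 to 0.34, edgeR adjusted p = 0.667). Uggt2 was at 47.2, 47.8, 43.5 and 42.9 CPM in the homecage and at 37.9, 40.2, 31.7 and 42.3 CPM after SOR. Every SOR library was below every homecage library, by a narrow margin for SOR replicate 4. The log2 fold change of Uggt2 was -0.25 (SE 0.0999, 95% interval -0.47 to -0.03, edgeR adjusted p = 0.621), and -0.18 both without SOR replicate 3 and among tTA+ mice alone. The Uggt2 to Uggt1 ratio per kb was 0.424 ± 0.0115 in the homecage and 0.324 ± 0.0613 after SOR (SD, n = 4 each), and its SOR values of 0.337, 0.326, 0.242 and 0.390 were all below the lowest homecage value of 0.412. The lowest of these ratios was in SOR replicate 3, the shallowest library and the one with the lowest summed neuronal markers. The part of depth or of tissue makeup in it was not tested. Behind these values stood 671 to 2969 counts of Uggt2 and 2789 to 7086 of Uggt1 per library. Uggt2 overlaps Gm16835 on the other strand in 1.72% of its exon bases.

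Ppib was at 47.7 to 50.2 CPM in the homecage and at 56.1, 48.7, 45.0 and 53.1 CPM after SOR. SOR libraries lay on both sides of the homecage range, and the log2 fold change was 0.05 (SE 0.0870, 95% interval -0.14 to 0.24, edgeR adjusted p = 0.873). Its sign turned without SOR replicate 1, to -0.0034. Ppib shares 25.0% of its exon bases with Snx22 on the opposite strand, and whether strand was used in counting is not given in the sources used here, so its level is uncertain.

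**Figure D3:**
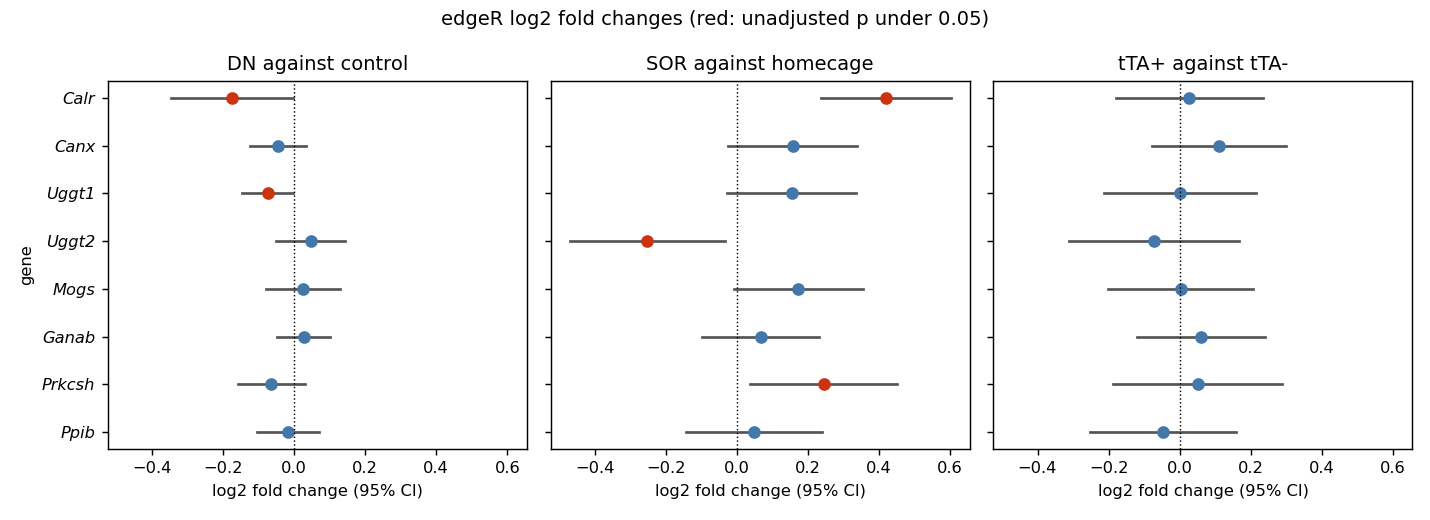
Log2 fold change of each gene with its 95% interval from edgeR in the comparisons of DN with control, SOR with homecage and tTA+ with tTA-. Red points have an unadjusted p under 0.05, namely Calr and Uggt1 with DN and Calr, Prkcsh and Uggt2 after SOR, and none passed an adjusted p of 0.05.

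With the dominant-negative Nr4A transgene, after SOR in all mice, the means of Calr, Uggt1, Prkcsh, Canx and Ppib were lower than in the controls. Their log2 fold changes were -0.17, -0.07, -0.06, -0.04 and -0.02. Those of Uggt2, Ganab and Mogs were above 0, at 0.05, 0.03 and 0.02. None of the 8 passed an adjusted p of 0.05 in edgeR, and DESeq2 and limma-voom also called 0. Over all 22391 genes, 0.00447% were called higher and 0.00447% lower. At an unadjusted p under 0.05, 0 of 8 were higher and 2 were lower (Calr and Uggt1), against 2.02% and 1.81% of all genes. That count of 2 held without control replicate 3 or control replicate 4 and was 0 or 1 without any of the other 9 libraries in turn. It was also 0 or 1 in 7 of 9 other settings, with 0 under limma-voom, with no filter on low counts and without the choroid-rich libraries. For 0 of the 8 did the groups separate, against 0.197% of all genes with every DN library higher and 0.103% with every DN library lower. The median log2 fold change of the 8 was -0.03, against 6.2e-05 over all genes, and 5 of 8 were below 0 against 50% of all genes. Without the choroid-rich libraries (control replicates 1 and 2 and DN replicate 2) the median was 0.00014, and leaving out 1 library gave -0.048 (without control replicate 3) to -0.015 (without control replicate 1). Of the markers of other cell types, 2 of 5 astrocyte and 1 of 6 oligodendrocyte markers were also lower with DN at an unadjusted p under 0.05, with medians of -0.07 and -0.02. The summed astrocyte level was 1511 to 1689 CPM with DN and 1573 to 1691 CPM in the controls, the summed oligodendrocyte level 6305 to 6914 and 6557 to 7734 CPM, and the part of either in the result was not tested. The log2 fold changes of Nr4a1, Nr4a2 and Nr4a3 themselves ran from -0.26 to -0.11 with 0 of 3 called, and whether transcripts of the transgene are counted in those genes was not tested.

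DN replicates 1 to 5 held 471, 424, 417, 441 and 425 CPM of Calr (mean 436 ± 21.6 SD, n = 5). In the controls its lowest, median and highest values were 408, 506 and 554 CPM (mean 491 ± 61.4 SD, n = 6). Control replicates 1, 2, 5 and 6 were higher than any DN library, while control replicate 3, at 408 CPM, was below all of them and control replicate 4, at 431 CPM, among them. A fixed list of 5 neuronal activity genes summed to 169 and 145 CPM in control replicates 3 and 4. The sum was 237 to 440 CPM in the other controls and 150 to 229 CPM with DN. All 5 were below 0 with DN, against 50% of all genes, with 0 at an unadjusted p under 0.05. Their part in the result was not tested. The log2 fold change of Calr was -0.17 (SE 0.0787, edgeR unadjusted p = 0.0482, adjusted p = 0.999). Without the 3 libraries rich in choroid plexus markers (control replicates 1 and 2 and DN replicate 2) it was -0.085 with an unadjusted p of 0.320. Leaving out control replicate 3 gave -0.22 with an unadjusted p of 0.00223.

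Uggt1 was at 110.2, 108, 117, 118 and 115 CPM in the DN libraries and at 113 to 124 CPM, with a median of 121, in the controls. The groups overlapped, and the log2 fold change was -0.07 (SE 0.0341, edgeR unadjusted p = 0.0416, adjusted p = 0.999). Without the choroid-rich libraries it was -0.042 with an unadjusted p of 0.337. Uggt2 was at 44.5 to 48.7 CPM with DN and 41.5 to 49.4 CPM in the controls, a log2 fold change of 0.05 (SE 0.0467), which ran from 0.024 without control replicate 5 to 0.073 without control replicate 6. The Uggt2 to Uggt1 ratio per kb was 0.413 ± 0.0192 with DN (SD, n = 5) and 0.380 ± 0.0279 in the controls (SD, n = 6), with overlapping ranges.

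Canx was at 681, 653, 667, 639.8 and 628 CPM in the DN libraries and at 627 to 717 CPM in the controls, a log2 fold change of -0.04 (SE 0.0377, 95% interval -0.12 to 0.03), which was -0.0076 without the choroid-rich libraries. Among the glucosidases, Mogs averaged 24.4 ± 0.997 CPM in controls (SD, n = 6) against 24.9 ± 1.35 CPM in DN mice (SD, n = 5). Ganab averaged 142 ± 5.37 CPM in controls (SD, n = 6) against 145 ± 6.41 CPM in DN mice (SD, n = 5). Prkcsh averaged 68.0 ± 4.88 CPM in controls (SD, n = 6) against 65.0 ± 1.90 CPM in DN mice (SD, n = 5), and the 2 highest control libraries, replicates 1 and 2, were both choroid-rich. Ppib averaged 45.4 ± 2.22 CPM in controls (SD, n = 6) against 44.8 ± 1.42 CPM in DN mice (SD, n = 5). For these genes the 95% intervals of the log2 fold change ran from -0.08 to 0.13 (Mogs), -0.05 to 0.10 (Ganab), -0.16 to 0.03 (Prkcsh) and -0.10 to 0.07 (Ppib), and the edgeR adjusted p was 0.999 for each. Without the choroid-rich libraries the log2 fold change of Prkcsh went from -0.06 to -0.014 and that of Ppib from -0.02 to 0.0079.

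The tTA genotype could be compared only in experiment 2, in the same 8 libraries as SOR and the homecage, with the exposure kept in the model. None of the 8 genes was called by edgeR, and DESeq2 and limma-voom called 0. Of 22904 genes, edgeR called 0.109% higher and 0.249% lower. At an unadjusted p under 0.05, 0 of 8 were higher or lower, against 2.27% and 3.44% of all genes, and for 0 of 8 did the genotypes separate, against 2.4% higher and 3.4% lower. On the log2 scale 6 of 8 were above 0 and 2 below, against 53.2% and 46.8% of all genes, with a median of 0.014 beside 0.013 over all genes. The largest log2 fold change was that of Canx, at 0.11 (SE 0.0844, 95% interval -0.08 to 0.30), whose mean was 606 ± 64.7 CPM without tTA (SD, n = 3) and 667 ± 31.98 CPM with it (SD, n = 5). It was 0.064 without homecage replicate 2 and 0.18 without SOR replicate 1. Uggt2 had the lowest, at -0.07 (SE 0.108, 95% interval -0.31 to 0.17). It was -0.034 without SOR replicate 3, -0.14 without SOR replicate 1 and -0.11 without SOR replicate 4, and 0.010 with the replicate block. That of Calr was 0.03 (95% interval -0.18 to 0.23), with its sign turning to -0.0034 under upper-quartile scaling, to -0.0099 without homecage replicate 3 and to -0.0086 without SOR replicate 3.

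The genes that work before, beside and after the cycle were taken from fixed lists. None of their members passed the adjusted test in any of the 3 comparisons by edgeR. Partners of the lectins and related lectins (9 genes) had 3 higher and 0 lower at an unadjusted p under 0.05 after SOR, against 3.67% and 3.93% of all genes, and 8 of 9 above 0, against 51.5%, with a median log2 fold change of 0.15 beside 0.0076 over all genes. Mlec, malectin, a lectin that binds newly attached chains, had a mean of 172 CPM in homecage mice and 217 CPM in SOR mice, a log2 fold change of 0.34 (SE 0.0811, edgeR adjusted p = 0.316). Pdia3, the disulfide isomerase that docks on both calnexin and calreticulin, had means of 149 and 187 CPM, a log2 fold change of 0.33 (SE 0.0858, edgeR adjusted p = 0.378). Lman2, a cargo lectin of the secretory pathway, had means of 119 and 147 CPM, a log2 fold change of 0.31 (SE 0.0837, edgeR adjusted p = 0.468). With DN the list had 0 higher and 2 lower at an unadjusted p under 0.05, Mlec at -0.11 and Pdia3 at -0.17 on the log2 scale, against 2.02% and 1.81% of all genes, with a median of -0.04.

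The oligosaccharyltransferase (12 genes), the complex that attaches the sugar chain, had 3 higher and 0 lower at an unadjusted p under 0.05 after SOR, against 3.67% and 3.93% of all genes, and 11 of 12 above 0, against 51.5%, with a median of 0.09. The 3 were Rpn1 at 0.31, Magt1 at 0.26 and Ost4 at 0.38 on the log2 scale. With DN 11 of its 12 genes were below 0, against 50% of all genes, with a median of -0.05, and Ostc at -0.15 and Magt1 at -0.14 had an unadjusted p under 0.05, against 1.81% of all genes lower at that p. The enzymes and lectins that trim mannose and lead misfolded glycoproteins to disposal (7 genes) had 0 at an unadjusted p under 0.05 after SOR or with DN, with medians of 0.05 and 0.00. The smallest unadjusted p of that list after SOR belonged to Edem3, a mannosidase of this pathway, at 0.15 on the log2 scale (edgeR unadjusted p = 0.0632). The other prolyl isomerases of the ER (7 genes) were all above 0 after SOR, against 51.5% of all genes, with a median of 0.22, and Ppic, cyclophilin C, had an unadjusted p under 0.05 both after SOR (0.48 on the log2 scale, against 3.67% of all genes higher at that p) and with DN (0.27, against 2.02%). Ppic was low, with means of 1.96 CPM in the homecage, 2.75 CPM after SOR, 2.25 CPM in the controls of experiment 1 and 2.70 CPM with DN. The list summed to 170 CPM in SOR replicate 3 and to 118 to 125 CPM in the other SOR libraries of experiment 2. Between tTA genotypes 0 genes of these 4 lists had an unadjusted p under 0.05.

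**Figure D4:**
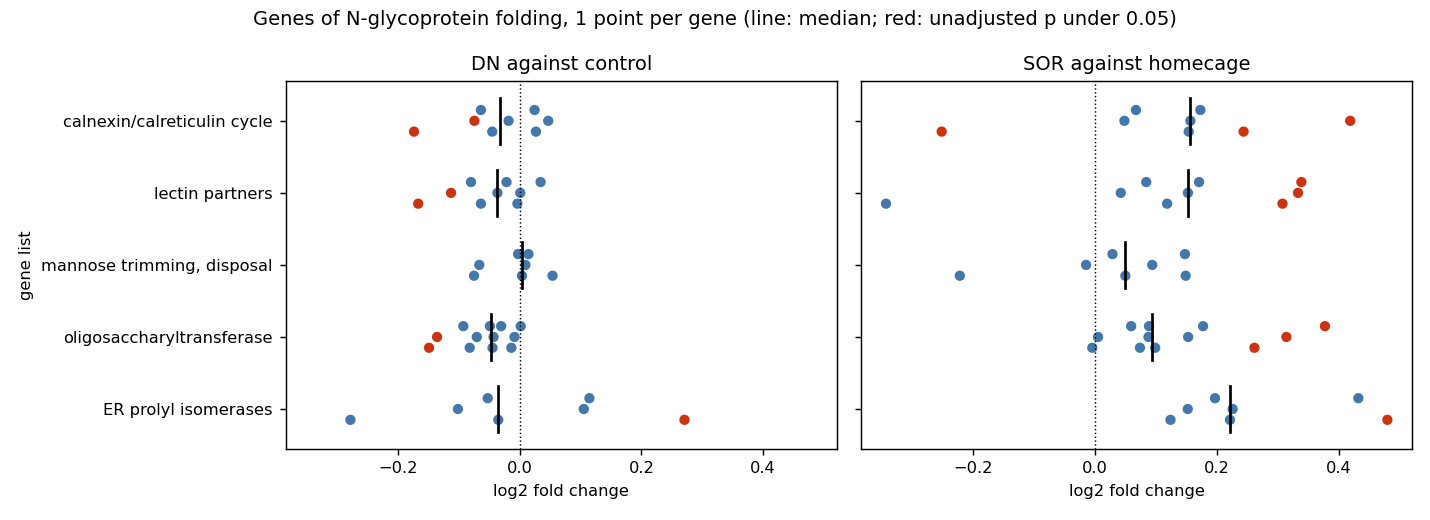
Log2 fold change of every gene of 5 lists with DN (left) and after SOR (right), 1 point per gene, the list's median as a line and genes at an unadjusted p under 0.05 in red. The medians after SOR run from 0.05 to 0.22 and those with DN from -0.05 to 0.00.

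Genes of the unfolded protein response, listed as a reference for ER stress (8 genes), had 4 called higher after SOR by edgeR, against 0.0897% of all genes. At an unadjusted p under 0.05, 6 of the 8 were higher and 0 lower, against 3.67% and 3.93% of all genes. The list did not move as a whole, since 6 were above 0 and 2 below, against 51.5% and 48.5%. The lowest was at -0.07 on the log2 scale and the median at 0.49, beside 0.0076 over all genes. The log2 fold change was 0.70 for Xbp1, a transcription factor of that response (adjusted p = 0.00879), 0.65 for Manf, a secreted ER protein (adjusted p = 0.0133), 1.05 for Sdf2l1, a BiP cofactor (adjusted p = 0.0200), and 0.87 for Hspa5 (edgeR adjusted p = 0.0228). With tTA as a covariate the calls of Hspa5 and Sdf2l1 were lost (edgeR adjusted p = 0.0632 and 0.0594). All 4 calls were lost among tTA+ mice alone (edgeR adjusted p = 0.998 for each), without the choroid-rich libraries (0.164 to 0.333), and without any 1 of homecage replicates 1, 2 and 3 and SOR replicate 1. Without homecage replicate 4 the call of Xbp1 alone was kept, and over all libraries left out in turn the largest adjusted p of the 4 genes was 0.138. The log2 fold changes of the 4 genes kept their sign under every setting tried, from 0.58 for Manf among tTA+ mice alone to 1.14 for Sdf2l1 without SOR replicate 4. Calr, at 0.42, lay below all 4. With DN 0 of the 8 reference genes were called, 5 were lower and 0 higher at an unadjusted p under 0.05, against 1.81% and 2.02% of all genes, and 7 were below 0, against 50%, with a median of -0.21.

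Among the 37 genes whose promoter window held the ER stress response element, 22 were tested after SOR, of which edgeR called 2 higher (Hspa5 and Dnajc3) and 0 lower, against 0.0897% and 0% of all genes. The call of Dnajc3 (edgeR adjusted p = 0.0432) was lost without any 1 library other than SOR replicate 3, and under 7 of 12 other settings. The median log2 fold change of the 22 was 0.13, beside 0.0076 over all genes, and 7 were higher and 0 lower at an unadjusted p under 0.05, against 3.67% and 3.93% of all genes. Calr was among those 7, and Canx, with the same element, was not. With DN 21 of the 37 were tested, 0 were called, 0 were higher and 5 lower at an unadjusted p under 0.05, against 2.02% and 1.81% of all genes, and the median was -0.14 beside 6.2e-05.

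Deviations of Calr from its group means, pooled over the 2 groups of an experiment, rose with those of Hspa5, though neither experiment passed adjustment. Over deviations of log2 CPM from the group mean, Pearson's r was 0.866 and Spearman's rho 0.864 in the 11 libraries of experiment 1 (permutation p = 0.00692 and 0.00518, adjusted 0.109 and 0.0637). In the 8 libraries of experiment 2 they were 0.897 and 0.929 (permutation p = 0.00863 and 0.0104, adjusted 0.136 and 0.157). Without the 2 libraries farthest from the median of Calr, r was 0.716 and 0.740. Adjustment covered 36 relations in each experiment, and 0 of the 36 had an adjusted p under 0.05 in either. For Calr with Canx, r was 0.839 and rho 0.718 in experiment 1 (permutation p = 0.00352 and 0.0253, adjusted 0.109 and 0.160) and r was 0.649 without 2 libraries. In experiment 2 it was 0.460 with a rho of 0.524 (permutation p = 0.181 and 0.176), and r was 0.712 without 2 libraries. With Hspa5, r in experiments 1 and 2 was 0.711 and 0.573 for Canx, 0.736 and 0.783 for Prkcsh and 0.725 and -0.43 for Ppib. It was 0.590 and 0.582 for Uggt1, -0.022 and 0.823 for Mogs and 0.0037 and -0.038 for Ganab. For Uggt2 with Hspa5, r was -0.028 in experiment 1 and -0.80 in experiment 2, and the latter was -0.36 without 2 libraries. Over the 28 pairs of the 8 genes the median r was 0.309 in experiment 1, with 20 pairs above 0, and 0.140 in experiment 2, with 15 above 0. In experiment 2 these pairs ran from -0.911 (Uggt1 with Ppib) to 0.903 (Uggt1 with Prkcsh). For Uggt2 with Mogs, r was -0.733 in experiment 1 and -0.827 in experiment 2 (permutation p = 0.00905 and 0.0152, adjusted 0.109 and 0.136). Without the 2 libraries farthest from the median of Uggt2 it was -0.752 and -0.688.

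**Figure D5:**
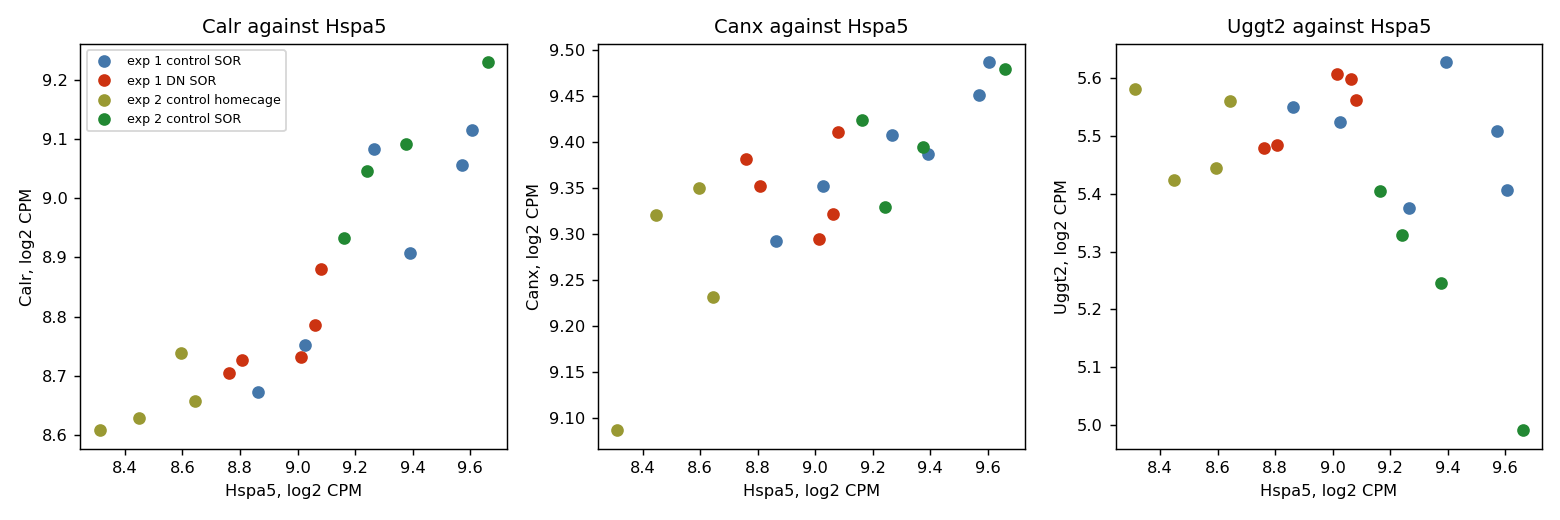
Log2 CPM of Calr, Canx and Uggt2 against that of Hspa5 in all 19 libraries, coloured by group, with scaling done within each experiment. For Calr with Hspa5, r was 0.866 in experiment 1 and 0.897 in experiment 2, over deviations from group means pooled within the experiment (adjusted permutation p = 0.109 and 0.136). For Uggt2 it was -0.028 and -0.80.

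Among genes at a mean of 5 CPM or more outside the set, those whose deviations followed the mean of the 8 most closely over the 19 libraries were Pdia3 (r = 0.899), Sdf2l1 (0.899), Tmem107 (0.890), Pdia4 (0.879) and Gm19935 (0.878), out of 12063 genes. For Calr alone the 5 closest were Sdf2l1 (0.938), Pdia6 (0.880), Hspa5 (0.872), Pdia4 (0.863) and Pdia3 (0.853). Pdia3, Pdia4 and Pdia6 are disulfide isomerases of the ER. For Canx the closest were Cetn2 (0.946), Hsp90aa1 (0.925), Rgs2 (0.923), Hdhd2 (0.921) and Akirin1 (0.919), and Hspa5 stood at rank 1062 of 12070 with an r of 0.611. For Prkcsh the closest were Sbk1 (0.937), Hyou1 (0.920), P4ha2 (0.913), Icmt (0.902) and Nucb1 (0.887), and Hspa5 stood at rank 397. For the others Hspa5 stood at rank 1197 (Uggt1), 3940 (Mogs), 4307 (Ppib), 6902 (Ganab) and 7957 (Uggt2, r = -0.36). These values describe likeness over the same libraries, which share depth and tissue makeup, and carry no test.

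The 8 genes lie on 7 chromosomes (GRCm38, GENCODE M21). Gene IDs are given with the version of the count table, and that of Ganab is ENSMUSG00000071650.6 in GENCODE M21. Calr (ENSMUSG00000003814.8) is on chromosome 8 from 84841850 to 84846934 with 15 annotated exons, and Canx (ENSMUSG00000020368.15) on chromosome 11 from 50293961 to 50325673 with 23. Uggt1 (ENSMUSG00000037470.14) is on chromosome 1 from 36140027 to 36244720 with 62 exons, and Uggt2 (ENSMUSG00000042104.18) on chromosome 14 from 118985039 to 119099430 with 64. These 4 are on the minus strand. Mogs (ENSMUSG00000030036.8) is on chromosome 6 from 83115496 to 83118898, Ganab (ENSMUSG00000071650.5) on chromosome 19 from 8898071 to 8916672, Prkcsh (ENSMUSG00000003402.14) on chromosome 9 from 22002806 to 22014222 and Ppib (ENSMUSG00000032383.7) on chromosome 9 from 66060222 to 66066623, all on the plus strand. Values are sums over the exons of a gene and do not separate transcripts.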

How the data were processed

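Raw counts per gene were deposited by the authors as 1 table of 51789 Ensembl genes and 19 libraries. Per the submitters' processing notes, STAR, SAMtools 1.6 and featureCounts 1.4.4 were used with the mm10 build. The STAR version, the annotation release and the use of strand are not given in the sources used here. Of the gene IDs, 51596 matched GENCODE M21 (GRCm38), which gave symbols and exon lengths.

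Each experiment was scaled alone by TMM, so levels were compared within an experiment. CPM are TMM-scaled, and log2 CPM used a prior count of 2. Genes passing edgeR's expression filter were tested with edgeR 4.0.16 (R 4.3.3) by its quasi-likelihood test, with Benjamini-Hochberg adjustment over all genes tested and a threshold of 0.05. All 8 genes of the cycle passed the filter in every comparison. DESeq2 1.42.0, limma-voom 3.58.1, other scalings, filters, samples and covariates were alternatives. Correlations used 100000 permutations within groups. No 2 libraries of a group agreed within counting noise (chi-square per degree of freedom 4.63 to 73.4). All 8 genes of the cycle are named. From other lists, called genes are named, or otherwise up to 3 with the smallest p, and for likeness the 5 closest genes (for single genes of the cycle, chosen after seeing values). The genes of the cycle and the lists were chosen with earlier results of these data known.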

Additional observations from a re-analysis of the deposited data

How the results depend on the processing

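After SOR, the count of called genes among the 8 was 0 in edgeR and 1 (Calr) with DESeq2 and with all 19 libraries in 1 fit. Over all genes edgeR called 20 after SOR, 35 at an adjusted p under 0.1, 36 with no filter on low counts, 122 with DESeq2, 145 with all 19 libraries in 1 fit, 11 with tTA as a covariate, 0 among tTA+ mice alone, 1 without the choroid-rich libraries (chosen after seeing the data) and 1 to 50 without 1 library. For tTA the 82 called genes became 133, 265, 253 and 388 under the first 4 of these settings, 15 without choroid-rich libraries and 10 to 290 without 1 library. The median log2 fold change of the 8 after SOR, 0.16, was 0.11 under upper-quartile scaling, 0.098 among tTA+ mice alone and 0.12 to 0.17 without 1 library. For tTA, 0.014, it was -0.015 under upper-quartile scaling, 0.054 without choroid-rich libraries and -0.014 to 0.059 without 1 library.

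Some small log2 fold changes changed sign. Without choroid-rich libraries, Ppib was at 0.0079 with DN and -0.0042 after SOR, and Uggt1 at -0.087, Prkcsh at -0.0042 and Ppib at 0.060 for tTA. Among tTA+ mice alone, after SOR, Ganab was at -0.015 and Ppib at -0.036. For tTA, upper-quartile scaling gave Calr -0.0034, Uggt1 -0.029 and Mogs -0.027, a minimum of 10 counts in every library gave Uggt1 -0.013 and Mogs -0.011, limma-voom gave Uggt1 -0.0021 and Mogs -0.0022, and all 19 libraries gave Uggt1 -0.0011. Without 1 library, ranges that crossed 0 were -0.0070 to 0.046 (Mogs) and -0.033 to 0.0048 (Ppib) with DN, -0.0034 to 0.0999 (Ppib) after SOR, and for tTA -0.0099 to 0.054 (Calr), -0.031 to 0.063 (Mogs), -0.076 to 0.064 (Ppib), -0.00026 to 0.081 (Prkcsh) and -0.083 to 0.027 (Uggt1). The cause was not tested. Over the values for the 8 genes, their counts, the counts called over all genes and the 5 other genes followed after SOR (Xbp1, Manf, Sdf2l1, Hspa5 and Dnajc3), leaving out 1 library left 299 on the same side with the same sign, while 26 lost a call, 25 counts or medians moved and 14 changed sign. The other settings left 371, while 18 lost a call, 2 gained one, 30 moved and 17 changed sign. The median with DN, -0.03, ran from -0.033 to 0.00014 over those settings and from -0.048 to -0.015 without 1 library.

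Replicate numbers were not taken as pairs, since not every pair correlated above 0.1: same-numbered deviations correlated at -0.12 to 0.51 over 5 pairs in experiment 1 (0 in which both libraries correlated best with each other) and at -0.057 to 0.71 over 4 pairs in experiment 2 (1 in which both did). With the replicate block, 9 genes were called after SOR and 0 for tTA, 0 of the 8 were called in any comparison, the adjusted p of Manf after SOR was 0.0710 and that of Dnajc3 0.139, and the tTA log2 fold changes of Uggt2 and Mogs turned to 0.010 and -0.038.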
